A study of Mus musculus with 7 samples.

Results

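The brain proteoglycans and perineuronal matrix genes described here are 10 genes, Tnc, Tnr, Ptprz1, Bcan, Ncan, Vcan, Cspg4, Cspg5, Hapln1 and Hapln2, of the 32285 genes in the count tables. They were chosen by symbol, and their UMI counts (unique molecular identifiers, 1 for each captured transcript) were read in all cells with 500 to 7000 detected genes and at most 10% mitochondrial counts, which were 43346 of 65049 barcodes. The single-cell RNA-seq libraries came from the lateral wall of the ventricular-subventricular zone (V-SVZ), the neural stem cell niche of the forebrain, of mice aged 31 to 33 days. Each library pooled 2 to 3 mice of both sexes. There were 3 control libraries (Prdm16 fl/fl without Cre), 3 cKO libraries, which added hGFAP-Cre, and 1 DKO library, which added hGFAP-Cre and Vcam1 fl/fl, so all groups carried the floxed Prdm16 alleles. The human GFAP promoter drives Cre in embryonic radial glia, from which many neurons and glia of the forebrain descend. Levels are given as CPM, the UMIs of a gene scaled to the same total of UMIs for each cell type and library (counts per 1e6).

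The space between brain cells is filled by a hyaluronan network. The lecticans, a family of chondroitin sulfate proteoglycans that includes brevican (Bcan), neurocan (Ncan) and versican (Vcan), bind hyaluronan with the help of link proteins (Hapln1, Hapln2), and the tenascins Tnc and Tnr bind the lecticans at their other end. Ptprz1 (receptor-type protein tyrosine phosphatase zeta), Cspg4 (NG2) and Cspg5 (neuroglycan C) are proteoglycans of the cell membrane. Around some neurons these molecules condense into perineuronal nets.

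Lectican and link protein genes lie next to each other in the mouse genome (coordinates of GRCm38). Hapln2 (chromosome 3, 88021750 to 88027583, minus strand) was 21519 bp from Bcan (87987531 to 88000230, minus strand), and Hapln1 (chromosome 13, 89539796 to 89611652, plus strand) was 43659 bp from Vcan (89655312 to 89742509, minus strand). The promoters of these 4 genes are shown because the neighbours were highest in different cell types. The RefSeq sequences (GRCm38.p6) run from 250 bases before the RefSeq gene start, which differs from the start given above for some genes, to 50 after it, 5′ to 3′ along the gene, and capitals mark CpG dinucleotides.
Bcan, chr3:88000307-88000606, minus strand: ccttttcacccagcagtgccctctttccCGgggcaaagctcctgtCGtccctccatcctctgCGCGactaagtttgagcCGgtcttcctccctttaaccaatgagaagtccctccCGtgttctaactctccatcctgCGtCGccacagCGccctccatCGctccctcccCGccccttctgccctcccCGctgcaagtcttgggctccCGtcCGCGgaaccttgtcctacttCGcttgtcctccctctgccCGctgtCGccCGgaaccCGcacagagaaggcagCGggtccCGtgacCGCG
Hapln2, chr3:88027462-88027761, minus strand: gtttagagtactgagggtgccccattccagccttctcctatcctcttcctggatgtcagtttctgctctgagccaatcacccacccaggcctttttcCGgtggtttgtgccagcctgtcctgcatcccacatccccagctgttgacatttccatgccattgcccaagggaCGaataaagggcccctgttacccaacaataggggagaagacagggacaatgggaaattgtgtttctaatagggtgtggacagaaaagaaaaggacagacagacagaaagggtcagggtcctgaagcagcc
Vcan, chr13:89742463-89742762, minus strand: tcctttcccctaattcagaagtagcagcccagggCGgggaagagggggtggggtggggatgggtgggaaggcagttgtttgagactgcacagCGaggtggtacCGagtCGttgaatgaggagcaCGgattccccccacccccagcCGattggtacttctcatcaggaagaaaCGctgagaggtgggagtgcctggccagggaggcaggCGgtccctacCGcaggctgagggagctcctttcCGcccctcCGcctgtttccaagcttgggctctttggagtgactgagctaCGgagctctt
Hapln1, chr13:89540386-89540685, plus strand: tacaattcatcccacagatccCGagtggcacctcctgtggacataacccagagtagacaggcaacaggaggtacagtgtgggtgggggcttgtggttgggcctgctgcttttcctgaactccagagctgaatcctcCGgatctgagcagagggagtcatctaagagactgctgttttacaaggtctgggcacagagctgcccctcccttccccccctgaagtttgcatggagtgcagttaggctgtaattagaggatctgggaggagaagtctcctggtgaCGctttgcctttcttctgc
The lectican promoters held 24 (Bcan) and 12 (Vcan) CpG dinucleotides, and the link protein promoters held 2 (Hapln2) and 3 (Hapln1), beside a median of 7 over the 32851 promoters of the table. Promoters of 9 of the 10 genes were in the table, and Cspg5 was not matched. Of the motifs searched on both strands (the SOX core ACAAAG, the NFI half-site TTGGCA, the E-box CAGCTG and the TATA box TATAAA, present in 18.7%, 14.1%, 16.3% and 13.6% of all promoters), none was found in the windows of Bcan, Vcan and Hapln1, and the window of Hapln2 held 1 CAGCTG.

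The libraries held 45758003 to 141353017 UMIs in all barcodes and 1868 to 9502 kept cells, with a median of 4960 to 8318 UMIs in a kept cell. The cKO library 2 was the smallest, and 49.8% and 47.2% of the barcodes of cKO libraries 2 and 3 passed the filter, against 70.2% to 74.7% in the other libraries. Between 2 and 70 cell barcodes were shared by any pair of libraries, at most 1.48% of the smaller one. In NSC-like cells the floxed gene Prdm16 stood at 75.3, 63.6 and 70.6 CPM in the control libraries, 55.8, 49.3 and 46.2 CPM in the cKO libraries and 57.2 CPM in the DKO library (log2 fold change of cKO over control −0.38 ± 0.14 SE, adjusted p = 0.267, edgeR). Counts at the 3′ end do not show whether the floxed exons were removed, so they do not check the genotype. Clustering, from which the 10 genes and the other matrix genes were left out, gave 18 clusters, of which 12 were named from markers. The remaining 6 clusters, with 8236 cells, had markers of several types or of none and stayed unnamed. The NSC-like cluster (neural stem cell; 5254 cells) was led by Thbs4 and Gfap and also passed all 7 astrocyte markers, so that NSC-like and astrocyte-like cells are the least distinct pair.

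Among the tenascins, Tnc was highest in NSC-like cells by the control mean. Its levels there were 65.9, 59.2 and 38.4 CPM in the control libraries, 43.9, 34.7 and 34.6 CPM in the cKO libraries and 34.5 CPM in the DKO library. The lowest control library lay within the cKO range. Astrocyte-like cells followed at a control mean of 37.8 CPM (range 28.7 to 52.7, n = 3), which overlapped the NSC-like range. The order was the other way in the cKO libraries, with means of 53.8 CPM (38.8 to 67.4) in astrocyte-like and 37.7 CPM in NSC-like cells, which also overlapped. In the DKO library astrocyte-like cells stood at 43.2 CPM. No other named type exceeded 11.9 CPM in any library. NSC-like cells held a median of 54.3% of all Tnc UMIs of a library. Tnr, in contrast, belonged to the oligodendrocyte lineage. In COP-like cells (committed oligodendrocyte precursors) it stood at 1125, 944 and 879 CPM in the control libraries, 835, 1165 and 1016 CPM in the cKO libraries and 1262 CPM in the DKO library. OPC-like cells (oligodendrocyte precursors) had a control mean of 881 ± 148 CPM (SD, n = 3, as in all control means here), and these types overlapped. The tenascins thus differed in cell type. Tnr was at 4.54 to 14.9 CPM in NSC-like cells, and Tnc at 1.3 to 4.9 CPM in OPC-like cells. Tnr also stood at 65.0 to 86.7 CPM in ependymal-like cells, the ciliated lining of the ventricle, in all 7 libraries, and at 43.8 to 95.5 CPM in neuron-like cells.

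**Figure D1:**
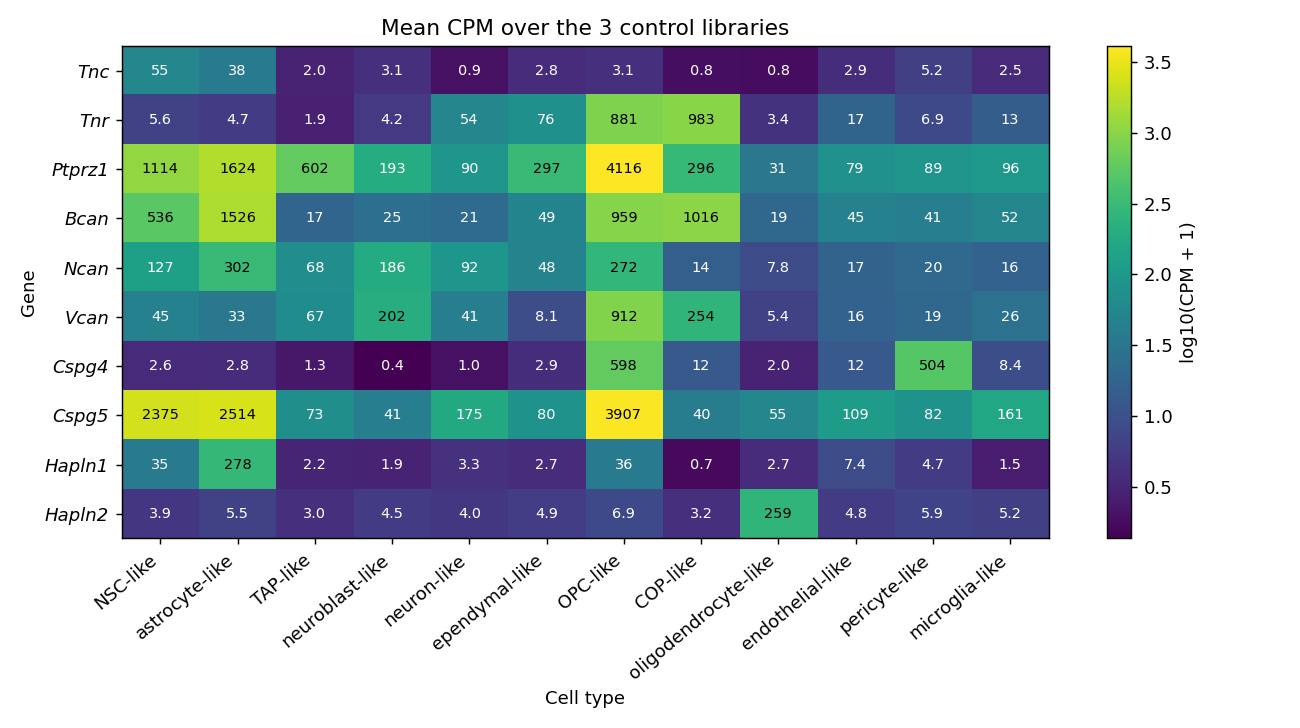
Mean CPM of each gene (rows) in each named cell type (columns) over the 3 control libraries, with the colour on a log10(CPM + 1) scale and the CPM printed in each cell. OPC-like cells hold the highest level of 4 genes, astrocyte-like cells of 3, and Hapln2 is high in oligodendrocyte-like cells alone among the named types.

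The membrane proteoglycans peaked in OPC-like cells. Ptprz1, which binds the growth factors pleiotrophin and midkine, stood there at 4255, 3597 and 4495 CPM in the control libraries, 3829, 4737 and 3942 CPM in the cKO libraries and 4939 CPM in the DKO library. It was the most widely expressed of the 10 genes, with control means of 1624 ± 301 CPM in astrocyte-like, 1114 ± 192 CPM in NSC-like and 602 CPM in TAP-like cells (transit amplifying precursors). The control ranges of these 4 types did not overlap. In NSC-like cells Ptprz1 stood at 1263, 898 and 1183 CPM in the control libraries, 1126, 1436 and 1326 CPM in the cKO libraries and 1533 CPM in the DKO library. Cspg5 was at 3894, 4518 and 3308 CPM in OPC-like cells of the control libraries, 3394, 2797 and 3245 CPM in those of the cKO libraries and 3061 CPM in that of the DKO library. Astrocyte-like and NSC-like cells followed at control means of 2514 ± 350 and 2375 ± 239 CPM, which overlapped each other, and OPC-like cells were 1.55 times as high as astrocyte-like cells, with control ranges apart. Cspg4 had a pattern of its own with a peak in each of 2 unrelated types. It stood at 693, 604 and 499 CPM in OPC-like cells of the control libraries, 556, 514 and 524 CPM in the cKO libraries and 511 CPM in the DKO library, and pericyte-like cells followed at a control mean of 504 ± 41.6 CPM, overlapping that range. The next type, COP-like cells, was at 11.9 ± 3.62 CPM, and in NSC-like cells Cspg4 rested on 4 to 22 UMIs a library.

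The lecticans differed among themselves. Bcan was highest in astrocyte-like cells, at 1473, 1861 and 1243 CPM in the control libraries, 1311, 1244 and 1126 CPM in the cKO libraries and 1089 CPM in the DKO library. It was next in COP-like (1016 ± 307 CPM) and OPC-like cells (959 ± 349 CPM), and in NSC-like cells it stood at 505, 699 and 405 CPM in the control, 404, 406 and 401 CPM in the cKO and 346 CPM in the DKO libraries. Control library 2 had the highest Bcan of all libraries in these 4 types. Ncan was lower and more even. It stood at 292, 305 and 308 CPM in astrocyte-like cells of the control libraries, 323, 367 and 318 CPM in the cKO libraries and 257 CPM in the DKO library, overlapping OPC-like cells (272 ± 31.2 CPM). Ncan was also carried by neuroblast-like cells (186 ± 32.1 CPM) and by NSC-like cells, where it was 127, 127 and 128 CPM in the control libraries, 106, 129 and 106 CPM in the cKO libraries and 101 CPM in the DKO library. Vcan was highest in OPC-like cells, at 1131, 753 and 853 CPM in the control, 848, 1002 and 787 CPM in the cKO and 1024 CPM in the DKO libraries. COP-like cells followed at 254 ± 39.4 CPM. Neuroblast-like cells, the young neurons that migrate out of the niche, were at 202 ± 61.6 CPM, overlapping COP-like cells, but held a median of 31.1% of all its UMIs. The aggrecan gene Acan, the lectican of perineuronal nets that is not among the 10, reached a control mean of 29.8 CPM in OPC-like cells and less elsewhere.

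The link proteins each had 1 leading type. Hapln1 was highest in astrocyte-like cells, at 345, 231 and 259 CPM in the control, 257, 197 and 168 CPM in the cKO and 221 CPM in the DKO libraries. By control means this was 7.73 times the next named type, OPC-like cells. Hapln2 was highest in oligodendrocyte-like cells, at 239, 360 and 179 CPM in the control, 264, 215 and 272 CPM in the cKO and 167 CPM in the DKO libraries. These cells held a median of 94.3% of its UMIs, and the next type, OPC-like cells, had 6.90 CPM. At a clustering resolution of 0.3 the control mean of Hapln2 was 121 CPM, against 259 CPM. The oligodendrocyte-like class then held 3109 cells, against 5136. A cluster of 1238 cells led by Klk6, with Hapln2 among its top 10 genes, stayed unnamed there. In NSC-like cells Hapln2 was at 2.19 to 4.86 CPM. Hapln1 thus differed in cell type from Vcan beside it, and Hapln2 from Bcan beside it. Of the matrix genes that neighbour Ncan, Hapln4 stayed at or under 0.981 CPM in the control mean of each named type.

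Free RNA in droplets gives UMIs in cells that do not express a gene, and microglia-like cells were used as a rough measure of it. With each cell thinned to 2000 UMIs, the median share of cells with a UMI was 98.6% for Cspg5 in OPC-like and 7.73% in microglia-like cells, and 100% and 5.34% for Ptprz1. The shares were 88.0% in astrocyte-like and 3.82% in microglia-like cells for Bcan, 32.1% in oligodendrocyte-like and 0% in microglia-like cells for Hapln2, and 7.53% in NSC-like and 0.76% in microglia-like cells for Tnc. Without thinning, 24.2% of NSC-like cells had a Tnc UMI. Median depths were 5282 to 12765 UMIs in NSC-like and 3733 to 6243 UMIs in microglia-like cells. Control library 2 stood apart in microglia-like cells, with 333 CPM of Cspg5 against 9.6 to 102 CPM in the other 6 libraries. Bcan was at 110 CPM there, against 14.7 to 32.2 CPM. In endothelial-like cells the same library had the lowest Bcan of the controls (37.4 CPM, range 37.4 to 53.6). The cause of this difference was not tested. Low levels, and this measure of free RNA, are thus least certain in that library.

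Along the oligodendrocyte lineage the genes differed in where they were high. OPC-like, COP-like and oligodendrocyte-like cells were clustered again, which gave an OPC-like subcluster (864 cells, Pdgfra), a COP-like one (649 cells, Bmp4 and Rassf10) and oligodendrocyte-like ones named here by their leading genes. A subcluster of 806 cells led by hemoglobin genes and Cldn5, with a low UMI count, and one of 40 dividing cells are not described. Between the OPC-like and the COP-like subcluster, Cspg5 differed, from a median of 3369 CPM over the 7 libraries (range 2669 to 4617) to 34.0 CPM (8.7 to 68.5). Cspg4 had medians of 538 and 18.9 CPM, Ncan of 284 and 17.8 CPM and Ptprz1 of 4275 and 415 CPM, and the ranges of each were apart. Tnr and Bcan did not follow: Tnr had medians of 955 and 1305 CPM, Bcan of 768 and 1055 CPM, with ranges that overlapped. Vcan had 852 and 321 CPM, with ranges apart. In the oligodendrocyte-like subclusters led by Ctps and Tac1 (549 cells), by Ptgds and Il33 (1270 cells), by Npsr1 and Scd1 (1356 cells) and by Klk6 and Hopx (1236 cells), Tnr had medians of 1.4 to 2.9 CPM and Bcan of 6.6 to 19.6 CPM.

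Among the subclusters described, Hapln2 was the only one of the 10 genes with its highest level in an oligodendrocyte-like one, and its level differed among these. The subcluster led by Ctps and Tac1 also held 82 COP-like cells, with Gpr17 at 139 CPM against 2.3 to 11.2 CPM in the others, so it may differ in stage. Its median was 4.1 CPM in the subcluster led by Ctps and Tac1, 41.7 CPM (22.3 to 91.3) in the one led by Ptgds and Il33, 244 CPM (165 to 368) in the one led by Npsr1 and Scd1 and 569 CPM (420 to 720) in the one led by Klk6 and Hopx. These ranges did not overlap between any pair of the 4 subclusters, in 7 libraries each. The subclusters came from the same cells, so their difference is a description with no test.

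**Figure D2:**
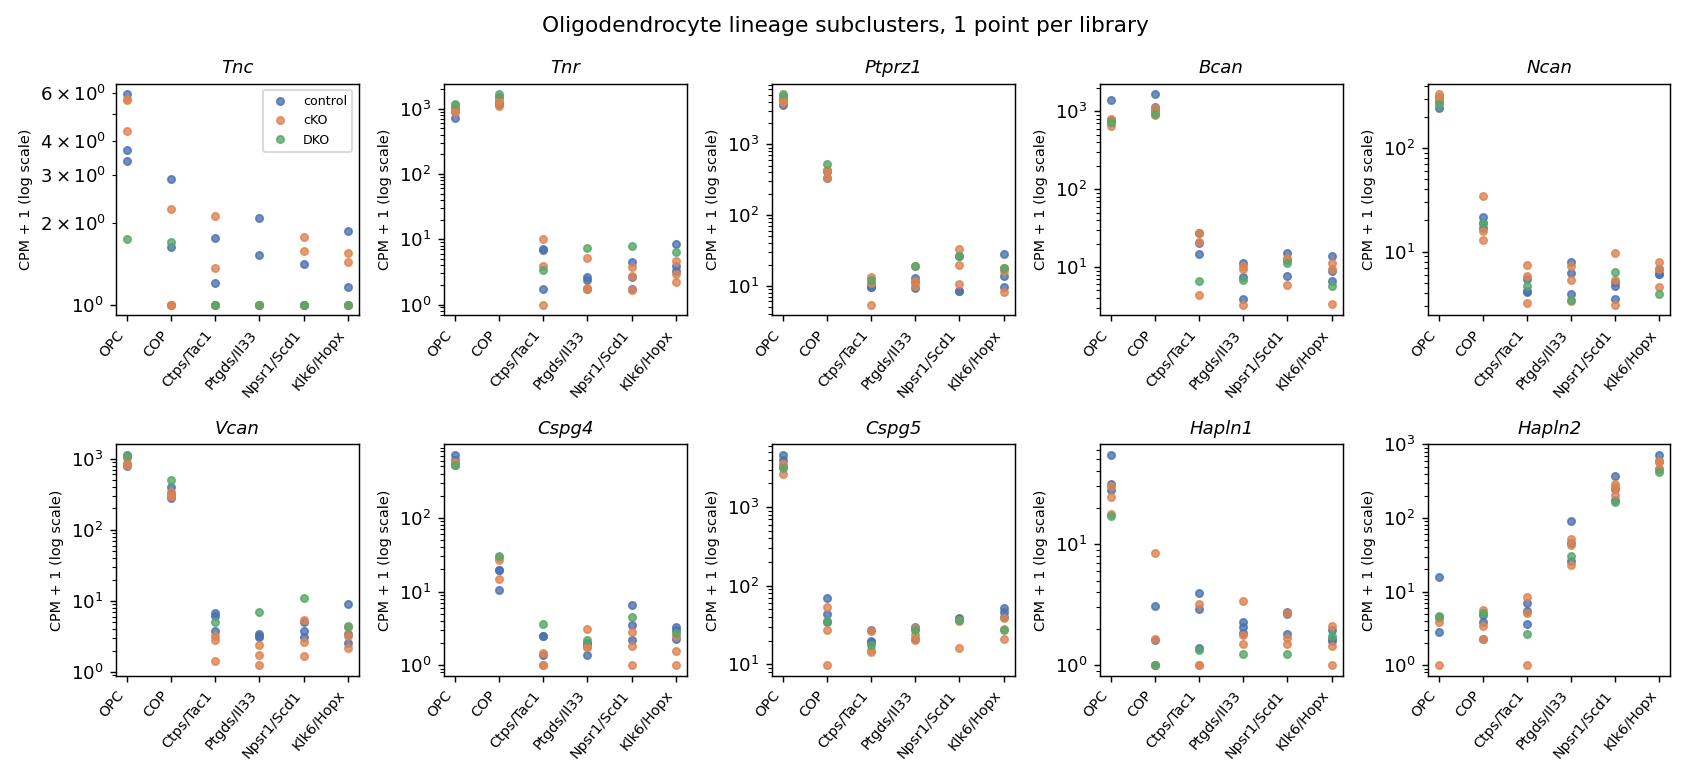
CPM + 1 on a log scale for each of the 10 genes in 6 subclusters of the oligodendrocyte lineage, 1 point for each library coloured by genotype, with oligodendrocyte-like subclusters named by their leading genes and set in order of Hapln2. Cspg5 is low in the COP column while Tnr and Bcan are not, and Hapln2 reaches 420 to 720 CPM in the subcluster led by Klk6 and Hopx.

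The main comparison asked whether loss of Prdm16 went with other levels of these genes in each cell type. Of the 106 gene and type pairs that passed the filter on low counts, of 120, 0 were called in cKO against control (edgeR's quasi-likelihood test on UMI sums, Benjamini-Hochberg adjusted p under 0.05 over all genes of the type), where 0.134% of all gene and type pairs were called. DESeq2 also called 0, where it called 0.672% of all pairs. At an unadjusted p under 0.05 there were 12 pairs by edgeR, beside 5.92% of all pairs. DESeq2 gave 11 such pairs. Its own share of all pairs at this threshold is not given here, so that count has no measure beside it and is not read as a result. In 5 pairs all cKO libraries lay above all control libraries, and in 14 pairs below, where 10.9% of all pairs did either. In NSC-like cells these were Hapln1 (above), Cspg5 and Cspg4 (below), 3 of 10 members, where 17% of all genes did not overlap. In astrocyte-like cells they were Ncan (above), Cspg5, Cspg4 and Hapln2 (below), 4 of 10, where 14.1% did not. The rest lay in other types, such as Ptprz1 and Hapln1 (above) and Vcan and Cspg4 (below) in ependymal-like cells. The shares over all genes in those types were not computed. The pairs under an unadjusted p of 0.05 numbered 4 of 10 in NSC-like (13.7% of all genes), 3 of 10 in astrocyte-like (10%), 2 of 10 in ependymal-like (8.4%), 1 of 10 in TAP-like (6.53%), 1 of 9 in neuroblast-like (8.54%) and 1 of 9 in endothelial-like cells (1.91%). Adjusted calls over all genes were 0.137% in ependymal-like and 0.0292% in neuroblast-like cells. An exact permutation test of 3 against 3 libraries cannot go below p = 0.1.

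The largest of these differences in CPM was that of Cspg5 in NSC-like cells. It stood at 2494, 2531 and 2100 CPM in the control libraries, 1889, 623 and 662 CPM in the cKO libraries and 1550 CPM in the DKO library. All cKO libraries were below all controls, and cKO library 1 was the highest of them. The NSC-like cells numbered 199 to 1225 a library, with the fewest in cKO library 2. The log2 fold change was −1.09 ± 0.40 (SE; adjusted p = 0.276, edgeR), and it did not pass the test. In astrocyte-like cells the log2 fold change was −0.64 ± 0.21 (adjusted p = 0.188), again with no overlap, and in OPC-like cells −0.21 ± 0.21 (adjusted p = 0.979).

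Hapln1 in NSC-like cells had the smallest adjusted p of all pairs. It stood at 44.2, 30.0 and 32.0 CPM in the control libraries, 45.8, 59.9 and 51.5 CPM in the cKO libraries and 40.0 CPM in the DKO library. All cKO libraries lay above all controls, and the log2 fold change was 0.65 ± 0.18 (adjusted p = 0.119). Without integration of the libraries it was −0.42, but the NSC-like class then held other cells: 1906, 768 and 2099 in the control libraries and 1134, 169 and 504 in the cKO libraries, beside an astrocyte-like class of 2, 2 and 8 control and 256, 285 and 917 cKO cells. In astrocyte-like cells, where the gene is highest, it was −0.41 ± 0.20 (adjusted p = 0.509). Vcan in NSC-like cells stood at 63.7, 33.6 and 38.6 CPM in the control, 38.8, 15.7 and 19.1 CPM in the cKO and 35.0 CPM in the DKO libraries, which overlapped (log2 fold change −0.77 ± 0.34, adjusted p = 0.383). Tnc was −0.42 ± 0.19 in NSC-like cells (adjusted p = 0.345) and 0.51 ± 0.23 in astrocyte-like cells (adjusted p = 0.440). Tnr, at few UMIs, was 0.85 ± 0.31 in NSC-like cells (adjusted p = 0.254).

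**Figure D3:**
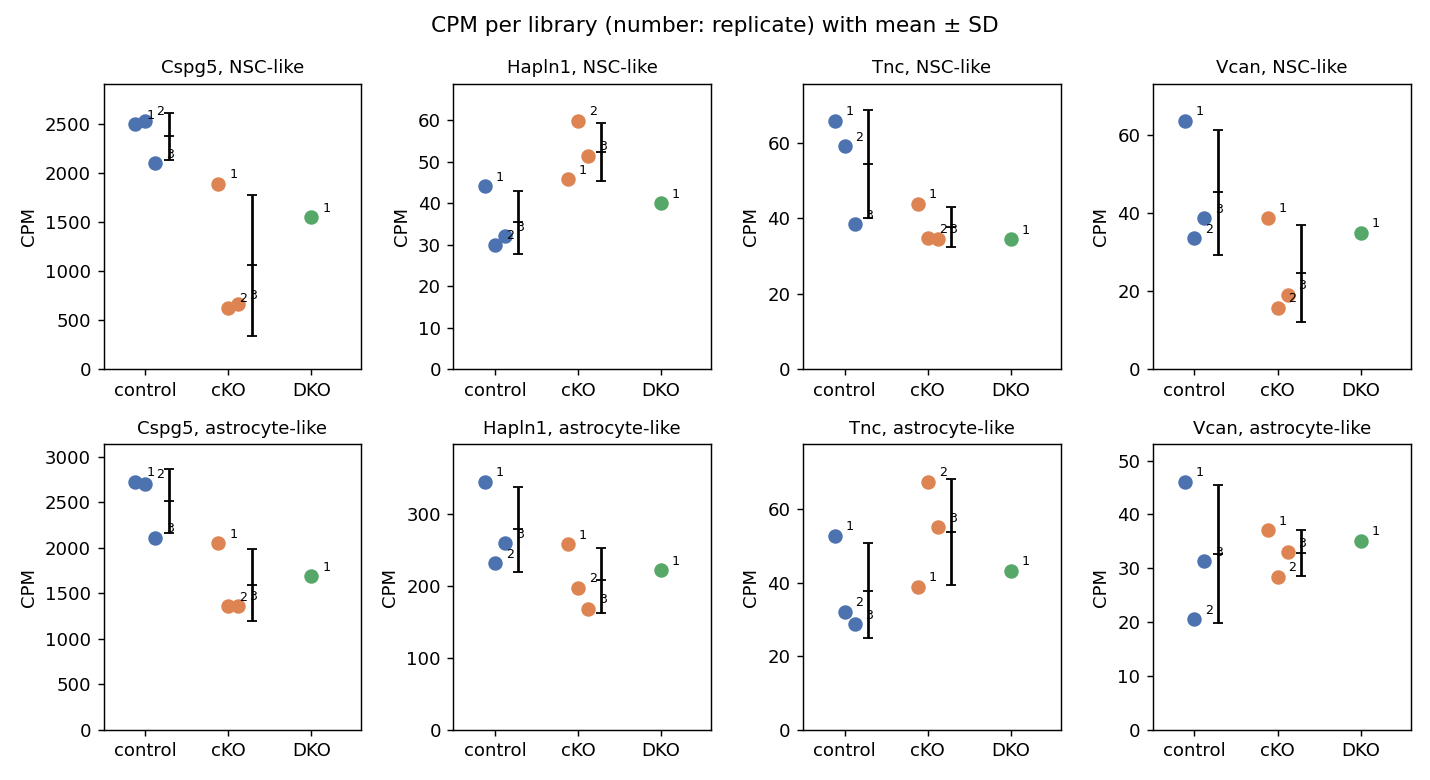
CPM of Cspg5, Hapln1, Tnc and Vcan in each library (points, numbered by replicate) for NSC-like cells (top) and astrocyte-like cells (bottom), with the mean ± SD of the control and cKO libraries beside them. In NSC-like cells cKO library 1 (1889 CPM of Cspg5) sits nearer the controls than cKO libraries 2 and 3 (623 and 662 CPM).

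The pair in endothelial-like cells was Tnr, named here after its values were seen. It stood at 28.2, 9.03 and 14.7 CPM in the control libraries, 1.21, 1.56 and 6.40 CPM in the cKO libraries and 1.88 CPM in the DKO library, on 2 to 62 UMIs a library. All cKO libraries lay below all controls, with a log2 fold change of −2.10 ± 0.58 (adjusted p = 1.00, edgeR), and the adjusted p was 0.00121 without the filter on low counts and at least 0.143 without any 1 library. Bcan, Cspg4 and Cspg5 in endothelial-like cells also had all cKO libraries below all controls. Over all named types 10.9% of gene and type pairs did not overlap, and the share within endothelial-like cells was not computed. Of the 9 members tested there, 1 had a positive log2 fold change (median −0.60, beside 0.01 over all genes). In microglia-like cells, used as a rough measure of free RNA, Tnr had control and cKO means of 13.4 and 3.64 CPM, beside 17.3 and 3.06 CPM in endothelial-like cells. The microglia-like libraries overlapped, at 1.01 to 31.5 CPM in the control and 0 to 9.35 CPM in the cKO libraries. Control library 2 was the highest control in microglia-like cells and, at 9.03 CPM, the lowest in endothelial-like cells. The part of free RNA in these values was not tested.

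The result rested on cKO library 1. Without it, 7 pairs were called, which were Cspg5 in NSC-like, TAP-like and astrocyte-like cells, Hapln1, Tnr and Vcan in NSC-like cells, and Tnc in neuroblast-like cells, where 2.04% of all pairs were called, and 11.4% of all genes in NSC-like cells. Cspg5 in NSC-like cells then had a log2 fold change of −1.76 ± 0.23 (adjusted p = 0.000113, edgeR). Leaving out any of the other 5 control and cKO libraries in turn gave 0 called pairs. The cKO libraries left in that fit, 2 and 3, were those with 49.8% and 47.2% of barcodes kept, against 70.2% to 74.7% in the other libraries. Genotype and this difference cannot be told apart there. Library 1 carries the same genotype label as the other cKO libraries, so the values with it are the result. Those without it are given as what 1 library decides.

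None of the other members passed the test in their highest types, and the libraries overlapped except for Ncan, where all cKO libraries lay above all controls. The log2 fold changes of cKO over control were 0.08 ± 0.18 for Tnr in COP-like cells, 0.11 ± 0.21 for Ptprz1, 0.04 ± 0.21 for Vcan and −0.07 ± 0.20 for Cspg4 in OPC-like cells, −0.30 ± 0.19 for Bcan and 0.16 ± 0.17 for Ncan in astrocyte-like cells, and 0.01 ± 0.22 for Hapln2 in oligodendrocyte-like cells, each with an adjusted p of at least 0.660. In NSC-like cells they were 0.31 ± 0.21 for Ptprz1, −0.31 ± 0.21 for Bcan, −0.08 ± 0.15 for Ncan, −0.87 ± 0.46 for Cspg4 and −0.15 ± 0.41 for Hapln2. A missed threshold does not show equal levels. In microglia-like cells, used as a rough measure of free RNA, 0 of the 7 members tested had a positive log2 fold change. Their median was −1.19, beside −0.01 over all genes, and control library 2 held the raised levels given above. In pericyte-like cells 0 of 6 were positive (median −0.48, beside 0.005 over all genes). In NSC-like cells 3 of 10 were positive, and in astrocyte-like cells 5 of 10. The cause of these signs was not tested.

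**Figure D4:**
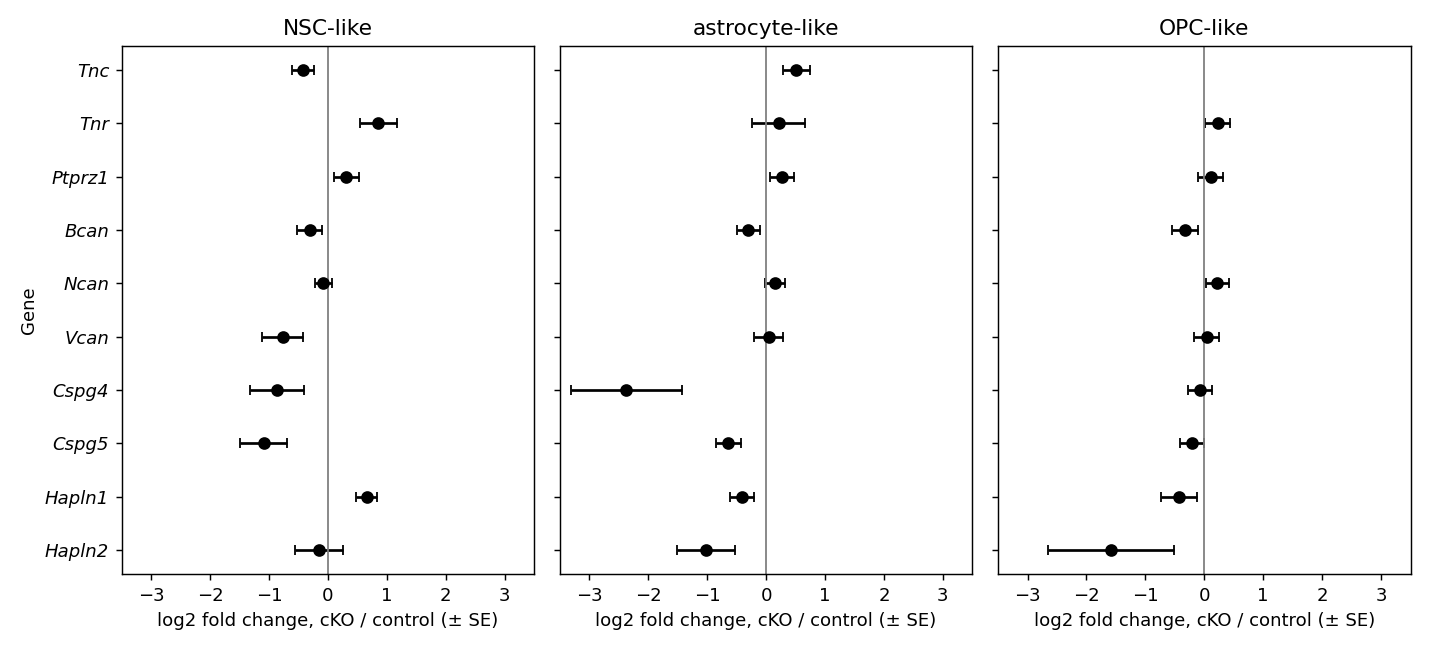
Log2 fold change of cKO over control (x axis) with its standard error for each gene (rows) in NSC-like, astrocyte-like and OPC-like cells, from edgeR. Tnc did not pass the filter on low counts in OPC-like cells and has no point there. None passed an adjusted p of 0.05, and Cspg5 in NSC-like cells lies at −1.09.

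Whether the cKO effect differed between cell types was tested in a fit chosen after the values were seen, with the library as a block. Between NSC-like and astrocyte-like cells the effect differed for Tnc, by −0.89 ± 0.21 on the log2 scale (adjusted p = 0.0391, edgeR), and for Vcan, by −0.83 ± 0.20 (adjusted p = 0.0284), where 1.71% of all genes were called. Hapln1 differed by 1.06 ± 0.23 (adjusted p = 0.0615) and missed the threshold. Without any 1 of the 3 control libraries or of cKO libraries 2 and 3, the adjusted p was 0.0797 to 0.314 for Tnc and 0.0822 to 0.388 for Vcan, and without cKO library 1 both were called, as were Hapln1 (difference 1.39) and Cspg5 (−0.88). With all libraries Cspg5 differed by −0.60 ± 0.22 (adjusted p = 0.311). None of the 10 members was called between NSC-like and OPC-like cells (1.21% of all genes) or between astrocyte-like and OPC-like cells (1.11%).

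In the DKO library 0 of 106 pairs were called against control (0.0371% of all pairs) and 0 against cKO (0.027%) by edgeR. DESeq2 also called 0 in both, where it called 0.126% and 0.0729% of all pairs. At an unadjusted p under 0.05 there were 10 and 7 pairs by edgeR, where edgeR gave 4.97% and 3.89% of all pairs. DESeq2 gave 10 and 4 such pairs. The DESeq2 shares of all pairs at this threshold are not given here. Its counts therefore have no measure beside them and are not read as a result. These fits take the lone library to vary like the other groups.

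Other genes of the matrix, a list of 85 receptors, ligands, hyaluronan and chondroitin sulfate enzymes, proteases and further proteoglycans, were read in the same fits. In cKO against control 0 of the 65 tested in NSC-like cells were called (0.167% of all genes were), 0 of 56 in astrocyte-like cells (1.23%) and 0 of 60 in OPC-like cells (0%). The unadjusted p was under 0.05 for 15, 7 and 3 of them, beside 13.7%, 10% and 4.7% of all genes. Their median log2 fold changes were 0.03, −0.09 and −0.03, where the median over all genes was between −0.01 and 0. DESeq2 called 5 pairs over the 12 types, Ptprd, Timp2 and Itgb8 in NSC-like, Spock2 in astrocyte-like and Tnxb in TAP-like cells. It called 3.82% of all genes in NSC-like, 1.66% in astrocyte-like and 0.494% in TAP-like cells.

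Genes most like each member over the 12 cell type means of the control libraries were named by Pearson's r of log2(CPM + 1), as a description over means that share libraries. Hapln1 went with Slc7a10 (0.98) and Atp13a4 (0.97), Tnc with Thbs4 and Scara3 (both 0.96), Bcan with Scrg1 (0.96) and Luzp2 (0.93), and Hapln2 with Cyp2j12 and Klk6 (both 0.95). Cspg5 went with Gpc5 and Hes5 (both 0.95), Ncan with Dclk1 and Mir9-3hg (both 0.94), Ptprz1 with Fabp7 (0.93) and Zfpm2 (0.92), and Cspg4 with C1qtnf6 and Tmem255b (both 0.92). Tnr went with Opcml (0.91) and Inava (0.90), and Vcan with Zkscan3 (0.91) and Nifk (0.90).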

How the data were processed

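Deposited UMI counts per gene and cell, made by the authors with Cell Ranger 6.1.1 per the labels (the file headers name 6.0.1 for control and cKO libraries 1 and 2) on mm10, were used as counts. Cells with 500 to 7000 genes and at most 10% mitochondrial counts were kept, integrated and clustered with Seurat 5.3.0 (2000 variable features without the 95 matrix genes, 30 components, resolution 0.15; lineage 0.2). Naming a cluster took 3 or more markers of 1 type, each detected in 10% of the cells and raised by 1 (log2), with 1 among the top 10 genes; clusters passing 75% of another type's markers stayed unnamed, except for related types. This naming rule was set after the clusters were seen. Scrublet (scanpy 1.11.5, expected rate 0.08) marked 0.75% to 4.11% of cells a library, which were kept in the main analysis; in control library 1, where its threshold marked under 0.5%, the median of the other libraries was used.

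UMI sums per type and library (at least 10 cells) were tested with edgeR 4.0.16 (filterByExpr, TMM, robust glmQLFit), 3 groups in 1 fit. DESeq2 1.42.0 and other settings were alternatives. On simulated NSC-like sums of 14072 genes, in which 200 had a log2 change of 1, 148 (74%) were recovered, beside 16 false calls. The changed genes were drawn from the more highly expressed ones, the DKO library was changed as well, and no library stood apart from its group. The share recovered is therefore not the power of the test for the 10 genes. Pooled mice make the replicates, so p-values measure the spread between pools. Named genes were all 10 members in their highest type, in NSC-like cells and where called, list genes called or next to a member, and the 2 most alike genes. Values after ± are the SD between libraries for levels in CPM and the standard error of the edgeR fit for log2 fold changes. The members and lists were chosen with earlier results of these data known. The labels do not say that equal replicate numbers are pairs. Their deviations from the group means correlated between control and cKO samples at 0.24, 0.12 and 0.47 in endothelial-like cells (replicates 1, 2 and 3). In ependymal-like cells they correlated at 0.40, 0.09 and 0.41, and in NSC-like cells at 0.27, −0.01 and 0.38. Replicate 2 was the lowest in every type (−0.22 to 0.12), while replicate 1 ran from −0.095 to 0.45 and replicate 3 from 0.22 to 0.56.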

Additional observations from a re-analysis of the deposited data

Results flagged for a closer look

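The effect of cKO on Tnc differed between NSC-like and astrocyte-like cells by −0.89 on the log2 scale, and that on Vcan by −0.83, in the interaction test of edgeR with the library as a block (adjusted p = 0.0391 and 0.0284). Both calls were lost on leaving out any of the 3 control libraries or cKO libraries 2 and 3, with an adjusted p of 0.0797 to 0.314 for Tnc and 0.0822 to 0.388 for Vcan, while the differences were −1.01 to −0.74 for Tnc and −0.93 to −0.61 for Vcan. Without cKO library 1 they were −1.16 (adjusted p = 1.5e-07) and −1.13 (adjusted p = 2.8e-05). The test was chosen after the values were seen.

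Hapln1 lay on opposite sides of the controls in different types, with no pair called. Its log2 fold change in cKO was 0.65 in NSC-like and 1.35 in ependymal-like cells, with all cKO libraries above all controls, and −1.07 in neuron-like cells, with all below. Without integration the value in NSC-like cells was −0.42, in a class of other cells, since the astrocyte-like class then held 2, 2 and 8 cells of the control libraries and 256, 285 and 917 of the cKO libraries. Hapln1 is low in the last 2 types, at control means of 2.7 and 3.3 CPM, and the difference between these types was not tested.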

How the results depend on the processing

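Of the counts of called members in cKO against control, 0 in the main analysis, that without a filter on low counts was 4 (Cspg5 in TAP-like, Hapln1 in NSC-like, Tnc in neuroblast-like and Tnr in endothelial-like cells), where 0.753% of all pairs were called. That with the replicate block was 4 (Cspg5 in TAP-like and astrocyte-like, Tnc in neuroblast-like and Vcan in NSC-like cells), where 1.11% were. Those without 1 library were 0 to 7, with 7 without cKO library 1 (2.04%) and 0 without any other (0.025% to 0.0688%). In endothelial-like cells the block called 0 of 9 members in cKO against control (smallest adjusted p = 0.332, edgeR, for Tnr). Between control and cKO samples, replicate 1 correlated at −0.095 to 0.45 and replicate 3 at 0.22 to 0.56 over the types. In TAP-like cells these were 0.45 and 0.55, and in neuroblast-like cells 0.26 and 0.56. The labels do not pair equal replicate numbers, and replicate 2 correlated weakly in every type (−0.22 to 0.12). Calls with the block are therefore given as an alternative only. In DKO against control the count was 3 without the filter (0.287% of all pairs), 5 with the replicate block (2.2%) and 0 to 2 without 1 library (2 without cKO library 1, 0.239%). The 5 were Tnr in NSC-like and astrocyte-like, Hapln1 in OPC-like, Cspg5 in oligodendrocyte-like and Bcan in endothelial-like cells. In DKO against cKO the count was 1 with the block (Tnr in astrocyte-like cells, 0.614%) and 0 to 1 without 1 library (1 without cKO library 1, 0.316%). The block in the DKO comparisons was chosen after seeing the data, and no check pairs the lone DKO library with replicate 1 of the other groups. Its file header names Cell Ranger 6.1.1, as do those of control and cKO libraries 3. Those of control and cKO libraries 1 name 6.0.1. The other matrix genes, 0 called in the main analysis, had 5 called pairs of 690 by DESeq2 (0.672% of all pairs), 14 of 989 without the filter (0.753%), 12 of 690 with the replicate block (1.11%), 2 of 690 with the Cell Ranger version as a term (0.209%), 1 of 615 at 5% mitochondrial counts (0.129%) and 0 to 22 without 1 library, with 22 of 692 without cKO library 1 (2.04%). The highest type was as in the main analysis for 10 of 10 genes at 5% mitochondrial counts and without marked doublets, 9 at resolution 0.3, 8 with the marker gate and 6 without integration, where the astrocyte-like cluster held 2, 2 and 8 cells of the control libraries, too few for a level, against 256, 285 and 917 of the cKO libraries. Over all genes in NSC-like cells edgeR called 24 and DESeq2 549. The cause of the other changes was not tested. Of 338 fold changes under alternatives, 315 kept their direction and their side of the threshold, 6 came past it and 17 turned.

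Turned values without integration, where the NSC-like class held other cells, were −0.18 for Ptprz1, −0.42 for Hapln1 and 0.18 for Hapln2 in NSC-like cells and −0.0027 for Hapln2 in oligodendrocyte-like cells, where no filter gave −0.0035 and leaving out abundant transcripts −0.00067. The marker gate gave −0.0128 for Ncan in astrocyte-like cells. Without 1 library, values ran from −0.0349 to 0.20 for Tnr in COP-like cells, from −0.0914 to 0.18 for Vcan and from −0.152 to 0.0151 for Cspg4 in OPC-like cells, and for Hapln2 from −0.197 to 0.322 in oligodendrocyte-like and from −0.495 to 0.0339 in NSC-like cells. Some values rest on few cells, as in the 30 OPC-like, 39 COP-like and 47 microglia-like cells of cKO library 2.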

Other observations

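Among the unnamed clusters, the one that passed both astrocyte and neuroblast markers (170 cells) had Tnc at a median of 42.5 CPM over 5 libraries with at least 10 such cells, beside 145 CPM of Vcan and 931 CPM of Cspg5. The unnamed cluster with pericyte and endothelial markers (341 cells) had Cspg4 at 184 CPM (114 to 243). The one led by Sst and Npy (459 cells) had Hapln1 at a median of 84.7 CPM, with a wide range over the 7 libraries (0 to 264).

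Tnc in neuroblast-like cells stood at 3.8, 4.0 and 1.4 CPM in the control libraries, 5.1, 11.9 and 8.9 CPM in the cKO libraries and 5.2 CPM in the DKO library. The log2 fold change was 1.56 ± 0.43 (adjusted p = 0.410, edgeR), on 12 to 62 UMIs a library.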
